A study of Mus musculus with 7 samples.

Results

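Immediate early genes are the genes that cells transcribe within minutes of a growth factor, cytokine, stress or injury signal, without first making new protein. The 10 genes described here were chosen by symbol from the gene table: Fos, Fosb, Jun, Junb and Jund, whose proteins pair to form the transcription factor AP-1, the transcription factors Egr1 and Atf3, the nuclear protein gene Ier2, and the feedback inhibitors Dusp1 and Zfp36. The table holds 53465 genes, all 10 members among them, and all 10 passed the filter on low counts that left 15774 genes for testing. Kidney RNA came from 7 MRL/lpr mice, which carry a defective Fas gene and develop a spontaneous lupus-like disease with nephritis. Of these, 4 had received AZD1152, a prodrug of an Aurora kinase B inhibitor, and 3 had received vehicle. Each mouse gave 1 poly(A)-selected library of renal tissue, and all mice of both groups carried the same lupus-prone background. Libraries held 14692113 to 17036862 counts, of which mitochondrial genes took 8.03 to 9.002% with vehicle and 9.41 to 11.6% with AZD1152. The dose, the schedule, the age of the mice and the time from death to freezing are not stated in those sources that were used.

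In resting cells most of these genes are nearly silent. MAP kinases phosphorylate factors already bound at their promoters, chiefly serum response factor with its Elk partners and CREB, and transcription starts at once. The transcripts are also short-lived: many carry AU-rich elements in the 3′ untranslated region, to which the protein of Zfp36 (tristetraprolin) binds and recruits the decay machinery. Dusp1 encodes a nuclear phosphatase that switches MAP kinases off, so that both genes close a feedback loop. In kidney, Fos, Egr1 and Atf3 are known to be induced by ischaemia and tubular injury, and also by the handling of tissue.

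Promoter sequence is shown for 4 members: the pair that fell with treatment (Zfp36 and Dusp1) and the pair of Fos genes, whose values parted in 1 mouse. Windows of 250 bases upstream of the RefSeq start (GRCm38.p6) were examined for 8 of the 10 genes. Ier2 had no entry among the windows, and Egr1 was not examined. Lines run 5′ to 3′ on the gene's strand, and capitals mark matches to the motifs described below other than the GC box. Fos and Fosb are shown in full, and the last 6 bases of the Fosb line belong to the untranslated region of a GENCODE transcript that starts there. A longer GENCODE transcript begins upstream of the RefSeq start in Dusp1 and in Zfp36 and makes 47 and all 250 bases of their windows an untranslated region. Dusp1 is therefore shown without those bases, and Zfp36 only by the 30 bases around its match.
Zfp36 (chr7:28379267-28379296, minus strand): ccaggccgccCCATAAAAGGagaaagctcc
Dusp1 (chr17:26508520-26508722, minus strand): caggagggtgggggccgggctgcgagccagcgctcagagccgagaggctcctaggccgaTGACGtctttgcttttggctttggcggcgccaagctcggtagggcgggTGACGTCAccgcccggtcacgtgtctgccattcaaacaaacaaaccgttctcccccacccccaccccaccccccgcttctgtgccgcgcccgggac
Fos (chr12:85473640-85473889, plus strand): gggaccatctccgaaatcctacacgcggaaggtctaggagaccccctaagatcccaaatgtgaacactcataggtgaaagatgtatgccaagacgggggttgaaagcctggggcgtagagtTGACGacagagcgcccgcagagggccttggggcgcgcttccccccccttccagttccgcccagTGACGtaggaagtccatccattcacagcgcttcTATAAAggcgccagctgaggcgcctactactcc
Fosb (chr7:19310046-19310295, minus strand): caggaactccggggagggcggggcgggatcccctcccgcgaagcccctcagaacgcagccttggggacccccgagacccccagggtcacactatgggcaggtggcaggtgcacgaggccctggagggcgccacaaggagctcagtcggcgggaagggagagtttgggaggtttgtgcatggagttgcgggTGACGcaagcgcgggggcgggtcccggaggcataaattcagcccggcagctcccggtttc

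The short form of the cAMP response element, TGACG, on which CREB and ATF factors bind, was present on either strand in 5 of the 8 windows (Fos, Fosb, Junb, Atf3 and Dusp1), against 17.8% of 32851 RefSeq promoter windows of the same length. The full palindrome TGACGTCA stood in 1 window, that of Dusp1, at bases -143 to -136 from the start, and 1.55% of all windows held it. It holds 2 of the 3 TGACG matches there, 1 on each strand. The CArG box, the binding motif of serum response factor, occurred in 1 window, that of Zfp36 (CCATAAAAGG, bases -58 to -49), against 1.47% of all windows. A TATA box (TATAAA) stood in the Fos window at bases -33 to -28, and 12.4% of all windows held one. GC boxes (GGGCGG, bound by Sp1) were found in 6 of 8 windows against 32.7%, and that of Zfp36 shares 1 base with the CArG box. The AP-1 site TGACTCA, held by 4.46% of all windows, was matched in 0 of the 8. These are matches of letters in a short window, and binding was not measured. The Jund window, which held none of these motifs, ends at base 70697738 of chromosome 8. The GENCODE start of the Jund gene lies further downstream, at base 70698949.

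The AU-rich heptamer TATTTAT, the DNA spelling of the core that tristetraprolin binds, was counted on the sense strand of the longest annotated 3′ untranslated region of each gene. It occurred in 7 of the 10 members and in 30.3% of 13697 genes tested that had such a region. Dusp1 and Zfp36 each held 3 copies, in regions of 690 and 774 bases. Of tested genes with a region within 10% of those lengths, 19.4% and 18.9% held any. Fos held 2 copies in 815 bases, and Fosb, Jun, Jund and Atf3 held 1 each. Junb, Egr1 and Ier2 held none. A window of 30 bases around a copy shows its setting in the members with 2 or 3 copies, with the heptamer in capitals.
Dusp1 (bases 93 to 122 of the region): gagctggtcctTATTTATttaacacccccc
Zfp36 (bases 564 to 593 of the region): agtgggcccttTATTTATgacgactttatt
Fos (bases 645 to 674 of the region): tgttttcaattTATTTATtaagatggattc

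Both feedback inhibitors, Zfp36 and Dusp1, fell in AZD1152 kidneys, and the other 8 members did not pass the test. In edgeR's quasi-likelihood test with a Benjamini-Hochberg adjusted p under 0.05, 2 of 10 members were lower and 0 were higher, beside 4.81% of all genes tested called lower, 3.02% called higher and 7.83% called in either direction. At an unadjusted p under 0.05, 3 members were lower and 0 were higher, where 13.1% of all genes were lower and 11.7% higher by that rule. DESeq2 also called 2 lower and 0 higher. Estimates were negative for 9 of 10 members, with a median log2 fold change of -0.36, where 50.1% of all genes had negative estimates and the median of all genes was -0.0006. Groups did not overlap in CPM (counts scaled to a common library size with TMM factors) for 2 members, both lower. Of all genes tested, 11.6% were lower without overlap, and 22.8% were without overlap in either direction. With total counts in place of TMM as the scale, the median of all genes moved to -0.15 and 13.5% of the called genes were higher, against 38.5% with TMM, and 2 members were still called lower. Leaving out 1 library left 2 members called without vehicle replicate 2, 1 without AZD1152 replicate 1 or 3, and 0 without any other. Since messenger RNA of whole tissue was sequenced, fewer cells that make a transcript and less transcript per cell cannot be told apart.

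**Figure D1:**
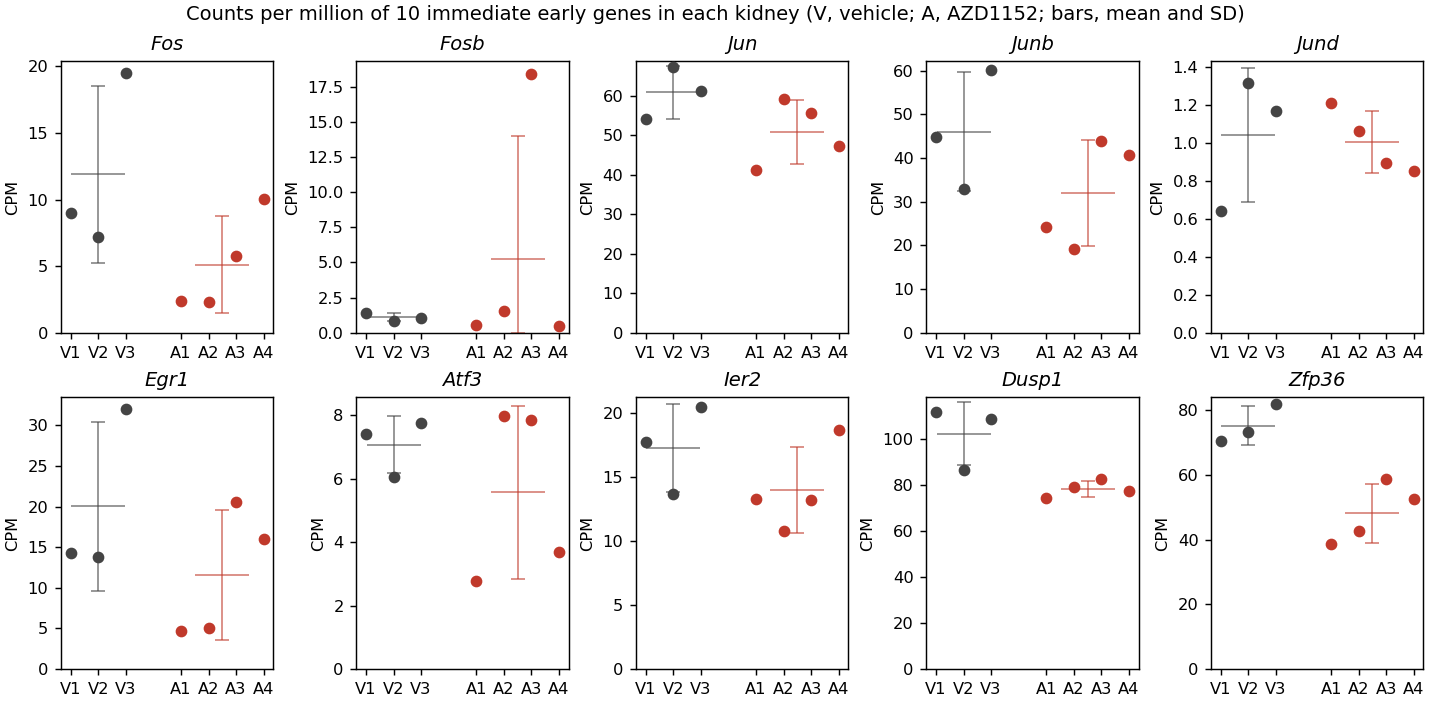
CPM of each of the 10 genes (linear axes from 0) in each kidney, with V1 to V3 the vehicle and A1 to A4 the AZD1152 replicates; horizontal marks are group means and bars are SD, cut at 0. Zfp36 and Dusp1 separate the groups, with all AZD1152 values below all vehicle values, while Fosb stands at 18.4 CPM in AZD1152 replicate 3 alone.

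Zfp36 (ENSMUSG00000044786; GRCm38 chromosome 7, 28376784 to 28380253, minus strand) encodes tristetraprolin, which shortens the life of cytokine transcripts. It stood at 70.4, 73.3 and 81.9 CPM in vehicle replicates 1 to 3 and at 38.8, 42.7, 58.7 and 52.5 CPM in AZD1152 replicates 1 to 4. The highest treated kidney was therefore below the lowest vehicle kidney. Means were 75.2 ± 6.001 CPM with vehicle (SD, n = 3) and 48.2 ± 9.08 CPM with AZD1152 (SD, n = 4). The log2 fold change was -0.64 ± 0.14 (SE; edgeR adjusted p = 0.0279). Leaving out any 1 of 4 libraries ended the call, namely vehicle replicates 1 and 3 (edgeR adjusted p = 0.0644 and 0.112) and AZD1152 replicates 2 and 4 (0.0585 and 0.0564), with estimates between -0.76 and -0.55 over the 7 fits that left out 1 library. Zfp36 shares 125 exonic bases with the antisense gene Gm44710, which had 0.386 ± 0.116 CPM in AZD1152 kidneys (SD, n = 4).

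Dusp1 (ENSMUSG00000024190; chromosome 17, 26505590 to 26562128, minus strand), the MAP kinase phosphatase MKP-1, had the highest counts of the 10. Vehicle replicates 1 to 3 had 112.0, 86.6 and 108.7 CPM, and AZD1152 replicates 1 to 4 had 74.5, 79.0, 82.8 and 77.3 CPM. The treated kidneys lay close together, within 1.11-fold of each other, and below every vehicle kidney. Means were 102.4 ± 13.8 CPM with vehicle (SD, n = 3) and 78.4 ± 3.47 CPM with AZD1152 (SD, n = 4), and the log2 fold change was -0.39 ± 0.09 (SE; edgeR adjusted p = 0.0425). This call was lost in 6 of the 7 fits without 1 library and held only without vehicle replicate 2 (edgeR adjusted p from 0.0206 to 0.161), while the estimates stayed between -0.49 and -0.31. Dusp1 shares 11 exonic bases with Ergic1.

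The Fos genes had the widest range over the 7 libraries and went opposite ways in 1 mouse. Fos (ENSMUSG00000021250; chromosome 12, 85473890 to 85477273, plus strand), the classical AP-1 subunit, had 9.03, 7.195 and 19.5 CPM in vehicle replicates 1 to 3. It had 2.36, 2.33, 5.75 and 10.1 CPM in AZD1152 replicates 1 to 4. Treated replicates 1 to 3 were below every vehicle kidney, and replicate 4 was above the lower pair of them. The log2 fold change of -1.23 ± 0.53 (SE) did not pass the test (edgeR adjusted p = 0.190), and without vehicle replicate 3 it was -0.67 (edgeR adjusted p = 0.615).

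Fosb (ENSMUSG00000003545; chromosome 7, 19302696 to 19310051, minus strand) encodes a close relative of Fos that also pairs with Jun proteins. It had 1.40, 0.857 and 1.06 CPM in vehicle replicates 1 to 3. AZD1152 replicates 1, 2 and 4 had 0.545, 1.53 and 0.496 CPM, whereas replicate 3 had 18.4 CPM (288 counts, against 7 to 24 counts in the other 6 libraries). In that kidney Fos was at 5.75 CPM, below all vehicle kidneys. Of 7 genes within 50 kb, looked at after this value was seen, Rtn2 was at 1.41 CPM there and at 0.742 to 2.12 CPM in the other libraries, and Ercc1 at 5.75 CPM beside 5.31 to 10.7 CPM. Vasp (52.4 CPM), Cd3eap (9.45 CPM) and 1700058P15Rik (0.128 CPM) were also within the range of the others. The remaining pair had their highest value there, Ppp1r13l with 10.35 CPM beside 7.02 to 8.53 CPM and Opa3 with 73.3 CPM beside 62.2 to 69.8 CPM. The log2 fold change of 2.25 ± 1.22 (SE; edgeR adjusted p = 0.295) rests on this library and turned to -0.37 without it (edgeR adjusted p = 0.710). With limma-voom on all 7 libraries it was 0.65 (adjusted p = 0.776).

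Jun ranged 1.63-fold over the 7 libraries and Junb 3.14-fold. Jun (ENSMUSG00000052684; chromosome 4, 95049034 to 95052222, minus strand), the partner of Fos in AP-1, had 54.1, 67.3 and 61.2 CPM in vehicle kidneys and 41.3, 59.1, 55.7 and 47.4 CPM in AZD1152 kidneys. The groups overlapped, and its log2 fold change was -0.26 ± 0.13 (SE; edgeR adjusted p = 0.256), moving to -0.17 without AZD1152 replicate 1. Junb (ENSMUSG00000052837; chromosome 8, 84974484 to 84978718, minus strand), often a brake on Jun-driven growth, had 44.9, 33.0 and 60.1 CPM with vehicle and 24.3, 19.1, 43.8 and 40.7 CPM with AZD1152. AZD1152 replicates 1 and 2 were below all vehicle kidneys, while replicates 3 and 4 were within the vehicle range. Its log2 fold change was -0.52 ± 0.30 (SE; edgeR adjusted p = 0.317), and -0.28 without vehicle replicate 3.

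Jund (ENSMUSG00000071076; chromosome 8, 70698949 to 70700616, plus strand), the Jun gene known as constitutive rather than inducible, was counted at 0.641 to 1.31 CPM with vehicle and 0.850 to 1.21 CPM with AZD1152. That is 11 to 23 counts a library, and its log2 fold change was -0.05 ± 0.32 (SE; edgeR adjusted p = 0.945). Of its 1668 exonic bases 877 also belong to the antisense gene Gm11175, which had 0 counts in all 7 libraries. The part of this overlap in the low Jund counts was not tested. Jun shares 232 exonic bases with the antisense gene Junos, and Junb shares 173 with Prdx2, which stood at 112.0 ± 4.49 CPM with vehicle (SD, n = 3) and 128.7 ± 8.95 CPM with AZD1152 (SD, n = 4).

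Egr1 (ENSMUSG00000038418) is a zinc finger factor induced through serum response factor. Vehicle replicates 1 to 3 had 14.3, 13.8 and 32.0 CPM, and AZD1152 replicates 1 to 4 had 4.66, 4.98, 20.6 and 16.0 CPM. Treated replicates 1 and 2 were below every vehicle kidney, and replicates 3 and 4 lay inside the vehicle range. The log2 fold change of -0.80 ± 0.53 (SE) did not pass the test (edgeR adjusted p = 0.403), and it was -0.28 without vehicle replicate 3. Atf3 (ENSMUSG00000026628; chromosome 1, 191170296 to 191218039, minus strand), a stress-induced repressor of the ATF family, split the treated mice in another way. It had 7.40, 6.05 and 7.77 CPM with vehicle, and 2.78 and 3.68 CPM in AZD1152 replicates 1 and 4 against 7.97 and 7.86 CPM in replicates 2 and 3 (log2 fold change -0.34 ± 0.35, SE; edgeR adjusted p = 0.600). Its estimate was -0.12 without AZD1152 replicate 1, -0.20 without replicate 4, -0.58 without replicate 2 and -0.57 without replicate 3. Ier2 (ENSMUSG00000053560; chromosome 8, 84661331 to 84662852, minus strand) lies on the same chromosome as Junb and Jund. It had 17.7, 13.7 and 20.5 CPM with vehicle and 13.3, 10.8, 13.2 and 18.7 CPM with AZD1152, and the groups overlapped (log2 fold change -0.31 ± 0.20, SE; edgeR adjusted p = 0.388). Without vehicle replicate 3 it was -0.17, and without AZD1152 replicate 4 it was -0.49.

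**Figure D2:**
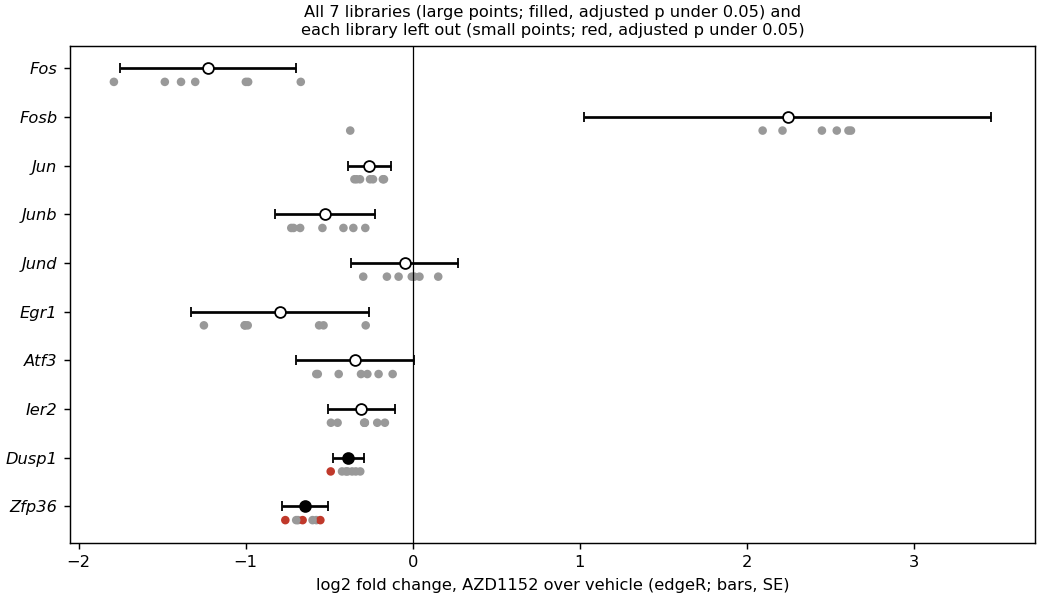
Log2 fold change of AZD1152 over vehicle for each gene from all 7 libraries (large points with SE, filled where the edgeR adjusted p is under 0.05) and from the 7 fits that each leave out 1 library (small points, red where under 0.05). Fosb moves from 2.25 to -0.37 in 1 of these fits, and the estimates of Zfp36 and Dusp1 stay below 0 in all of them while their calls come and go.

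Read mouse by mouse, the members did not shift by the same amount in every treated kidney. In AZD1152 replicate 1, 9 of 10 members (all but Jund) were below the lowest vehicle value, and 5 members had their lowest value of the 7 libraries there. Replicate 2 had 6 members below the vehicle range, replicate 4 had 5 and replicate 3 had 4. The share of all genes below the vehicle range in each library was not computed. These counts therefore have no baseline and only describe the members. Relative to the mean log2 CPM of the vehicle kidneys, the median member differed by -0.86, -0.51, -0.13 and -0.28 in AZD1152 replicates 1 to 4. Among the vehicle kidneys, replicate 3 was the highest for 6 members (Fos, Junb, Egr1, Atf3, Ier2 and Zfp36) and the lowest for 0. Replicate 2 was the lowest of the 3 for 7 members.

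**Figure D3:**
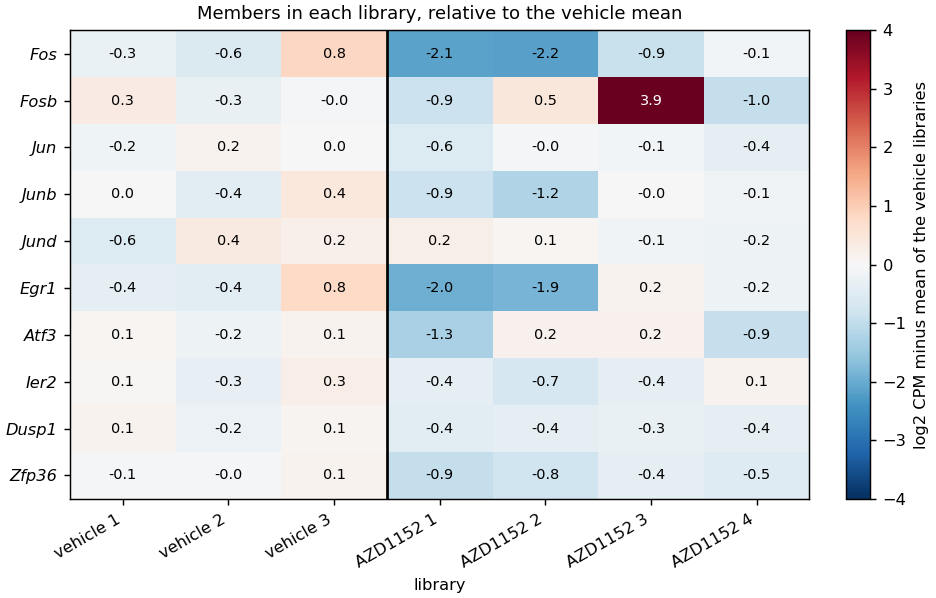
Log2 CPM of each gene in each library minus the mean of the 3 vehicle libraries (colour and printed value; rows are genes, columns are libraries, the line parts vehicle from AZD1152). In AZD1152 replicates 1 and 2 Fos stands at -2.14 and -2.16 and Egr1 at -1.96 and -1.86, while the Zfp36 and Dusp1 rows are below 0 in all 4 treated libraries.

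Heat shock genes were listed beside the members because they too respond quickly to stress and to tissue handling. Of 11 heat shock genes 3 rose and 0 fell (Hsp90aa1, Hspd1 and Hspe1, chaperones of the cytosol and the mitochondria), with a median log2 fold change of 0.48. Among all genes tested, 3.02% were called higher and 4.81% lower. Hsp90aa1 had 345.6 ± 74.5 CPM with vehicle (SD, n = 3) and 554.1 ± 33.2 CPM with AZD1152 (SD, n = 4), with a log2 fold change of 0.68 ± 0.14 (SE; edgeR adjusted p = 0.0273). Hspd1 and Hspe1 had 0.46 ± 0.11 and 0.37 ± 0.09 (SE; edgeR adjusted p = 0.0387 and 0.0406). Hsp90aa1 was not called when AZD1152 replicate 3 or 4 was left out, Hspd1 when any library but vehicle replicate 2 was, and Hspe1 when any single library was or under total-count scaling. The largest edgeR adjusted p in those fits was 0.0701 for Hsp90aa1, 0.0961 for Hspd1 and 0.129 for Hspe1. The summed level of the list was 1719 to 2647 CPM with vehicle and 2504, 3512, 3272 and 3624 CPM in AZD1152 replicates 1 to 4. AZD1152 replicate 1, which held the lowest of the 7 values for 5 members, had the lowest sum of the treated kidneys. Replicate 2, which held the lowest value for 3 members, had a sum of 3512 CPM. Hspa1a and Hspa1b were highest in replicate 2, at 82.0 and 228.9 CPM. They were not called (log2 fold change 1.66 ± 0.68 and 1.46 ± 0.54, SE; edgeR adjusted p = 0.168 and 0.135). The part of tissue handling in the members' values was not tested.

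Members differed widely in how much mice of 1 group varied. The biological coefficient of variation, which is the spread between mice beyond counting noise as edgeR estimates it, was 0.947 for Fosb, 0.489 for Egr1 and 0.486 for Fos. These are at the 99.7th, 98.4th and 98.4th percentile of all genes tested. Atf3 had 0.329 and Junb 0.278. Zfp36 (0.137), Jun (0.131) and Dusp1 (0.104) were below the median gene of all abundances, at the 46.9th, 43.4th and 21.7th percentile. Against genes of like abundance, the ratio to the fitted trend was 3.55 for Fosb, 2.85 for Egr1, 2.34 for Fos and 2.06 for Junb. It was 1.15 for Zfp36, 1.09 for Jun and 0.879 for Dusp1, which are at the 85.3rd, 82.2nd and 63.3rd percentile of that ratio. The highest and lowest of the 7 libraries differed 8.38-fold for Fos, 6.88-fold for Egr1 and 1.503-fold for Dusp1. Fosb had 18.4 CPM in AZD1152 replicate 3 and 0.496 to 1.53 CPM in the other treated kidneys, so its spread came mostly from 1 library.

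**Figure D4:**
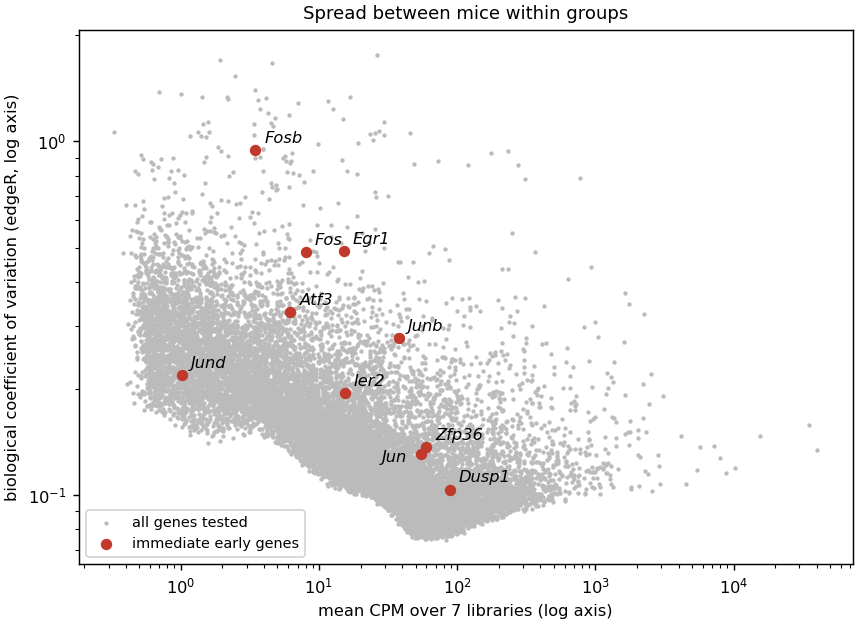
Biological coefficient of variation against mean CPM (both axes log) for all 15774 genes tested (grey) and the 10 immediate early genes (red). Fosb, Fos and Egr1 lie at the top of the cloud for their abundance, Fosb mostly through AZD1152 replicate 3. Dusp1, Jun and Zfp36 lie among the bulk of abundant genes.

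Levels between members were compared per kilobase of exon, since longer transcripts gather more reads. The length counts the exons of all annotated transcripts of a gene. It can exceed that of the transcript present, which was not determined. In vehicle kidneys Dusp1 was the highest at 30.9 ± 4.18 CPM per kb (SD, n = 3). Zfp36, Junb and Jun followed at 21.7 ± 1.73, 20.0 ± 5.91 and 19.1 ± 2.08 CPM per kb, and neighbours in this trio did not differ beyond their SD. Ier2 had 11.4 ± 2.26 CPM per kb. Fos, Egr1 and Atf3 came next at 5.06 ± 2.82, 4.47 ± 2.32 and 3.29 ± 0.420 CPM per kb, each within the SD of its neighbour. Jund (0.624 ± 0.212) and Fosb (0.177 ± 0.0439 CPM per kb) were the lowest. The level of Jund is uncertain, as 877 of its 1668 exonic bases overlap Gm11175 and the counting of reads there is not known. In AZD1152 kidneys Dusp1 was again first at 23.7 ± 1.05 CPM per kb (SD, n = 4), and Zfp36 stood behind Jun and Junb at 13.9 ± 2.62 CPM per kb, within the SD of Junb.

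Ratios between members within a library do not depend on how libraries are scaled. The log2 ratio of Fos to Jund was 3.41 ± 0.857 (SD, n = 3) with vehicle and 2.05 ± 1.24 (SD, n = 4) with AZD1152, a difference of -1.35 (exact two-sided permutation test, p = 0.171, adjusted p = 0.457 over 4 ratios). The differences for Junb, Egr1 and Jun over Jund were -0.57, -0.98 and -0.27 (exact permutation p = 0.286, 0.343 and 0.571). Leaving out 1 library moved the 4 differences to between -1.84 and -0.99 for Fos, between -0.98 and -0.26 for Junb, between -1.41 and -0.56 for Egr1 and between -0.39 and -0.05 for Jun. The values nearest 0 came without AZD1152 replicate 1 for Fos and Egr1 and without vehicle replicate 1 for Junb and Jun. With 35 ways to split 7 mice, the smallest two-sided p of this test is 0.0571, so no ratio could have passed 0.05. Because Jund had few counts, Jun was also used as the denominator, a choice made after its counts were seen. Fos over Jun then differed by -1.08 and Egr1 over Jun by -0.71 (exact permutation p = 0.229 and 0.400), and Junb over Jun by -0.30 (exact permutation p = 0.571), all with an adjusted p of 0.571 over these 3 ratios.

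Beyond the 10 members, other immediate early genes were read beside all genes tested, of which 4.81% were called lower and 3.02% higher. In the list of other immediate early transcription factors 2 of 19 tested genes fell and 0 rose. Of the 19, 15 had negative estimates (median log2 fold change -0.36), beside 50.1% of all genes, and Egr4 had 0 counts in every library. Klf6, induced by tissue injury, and Klf2, a factor of endothelial cells and quiescent T cells, fell from 105.8 ± 10.6 to 68.2 ± 9.54 CPM and from 26.04 ± 3.26 to 18.04 ± 2.03 CPM (SD, n = 3 and 4; edgeR adjusted p = 0.0197 and 0.0387). Among other immediate early effectors 2 of 29 fell and 0 rose, with 26 estimates negative (median -0.37). Adamts1, a secreted metalloproteinase, fell from 102.6 ± 23.7 to 53.3 ± 10.1 CPM and Gadd45g, a growth arrest gene, from 71.9 ± 13.7 to 36.1 ± 8.76 CPM (SD, n = 3 and 4; edgeR adjusted p = 0.0206 and 0.0214). Klf6 lost its call when vehicle replicate 1, vehicle replicate 3 or AZD1152 replicate 4 was left out, and Klf2 when any library but AZD1152 replicate 3 was (largest edgeR adjusted p = 0.0795 and 0.118). Leaving out AZD1152 replicate 4 also ended the calls of Adamts1 and Gadd45g, as did leaving out vehicle replicate 3 for Adamts1 and vehicle replicate 1 for Gadd45g (largest edgeR adjusted p = 0.0716 and 0.0705). DESeq2 called 8 effectors lower, and edgeR called 6, 3 and 0 without AZD1152 replicates 3, 2 and 4, and 1, 5 and 1 without vehicle replicates 1 to 3.

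Among relatives of the members, Batf, Batf2 and Dusp2 fell, where 4.81% of all genes tested were called lower. In the list of AP-1 and ATF partners 2 of 17 fell and 0 rose (median -0.11): Batf, which pairs with Jun proteins in T and B cells, and the interferon-induced Batf2. Batf2 had 4.48, 6.28 and 5.94 CPM with vehicle and 2.00, 0.996, 2.49 and 2.20 CPM with AZD1152, a log2 fold change of -1.53 ± 0.29 (SE; edgeR adjusted p = 0.0207). Batf had -1.30 ± 0.27 (SE; edgeR adjusted p = 0.0273). Of 9 other MAP kinase phosphatases 1 fell and 0 rose (median -0.33). It was Dusp2, known from activated lymphocytes and macrophages, with 3.79, 4.797 and 5.39 CPM against 1.39, 1.06, 2.04 and 1.84 CPM (log2 fold change -1.55 ± 0.26, SE; edgeR adjusted p = 0.0147). All 3 calls ended when vehicle replicate 3 was left out (edgeR adjusted p = 0.0698 for Batf, 0.0796 for Batf2 and 0.0657 for Dusp2). Batf was also not called when vehicle replicate 1, vehicle replicate 2 or AZD1152 replicate 4 was left out.

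Macrophage and T cell markers were also lower with AZD1152, where 4.81% of all genes tested were called lower and 3.02% higher. All 9 macrophage markers had negative estimates and 7 fell, with a summed level of 832.6 to 1164 CPM with vehicle and 388.8 to 596.5 CPM with AZD1152. Of 9 T cell markers 6 fell, and their sum was 95.1 to 147.0 CPM against 47.3 to 69.9 CPM. No marker of either list was at 0 in all libraries. Neutrophil markers summed to 25.1 to 29.6 CPM and 9.56 to 27.4 CPM, and B and plasma cell markers to 129.6 to 803.9 CPM and 35.7 to 522.2 CPM, with 0 called in either list (edgeR adjusted p of single markers from 0.0967, and 4 at an unadjusted p under 0.05). Of the 7 endothelial markers 0 were called in edgeR (1 at an unadjusted p under 0.05, Flt1, higher), with sums of 386.3 to 512.9 CPM and 449.8 to 499.8 CPM. Proximal tubule markers, which define the labelled tissue, summed to 7438 to 9472 CPM and 11100 to 13190 CPM, and 3 of 7 rose. In the collecting duct list 2 of 4 tested markers rose (Scnn1g and Atp6v1g3; sums 291.9 to 363.6 CPM and 262.7 to 404.6 CPM), and in the loop of Henle and distal tubule list 1 of 5 (Pvalb; 4960 to 5966 CPM and 3666 to 6159 CPM). Smooth muscle and fibroblast markers summed to 172.7 to 266.9 CPM and 117.5 to 190.6 CPM, with negative estimates for all 5 tested and 0 called in edgeR (1 at an unadjusted p under 0.05, Dcn). Podocyte markers summed to 548.3 to 581.6 CPM and 497.2 to 729.3 CPM, with 0 of 5 called in edgeR (1 at an unadjusted p under 0.05, Wt1). The part of leukocyte content in the lower Zfp36, Dusp1, Batf, Batf2 and Dusp2 was not tested.

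**Figure D5:**
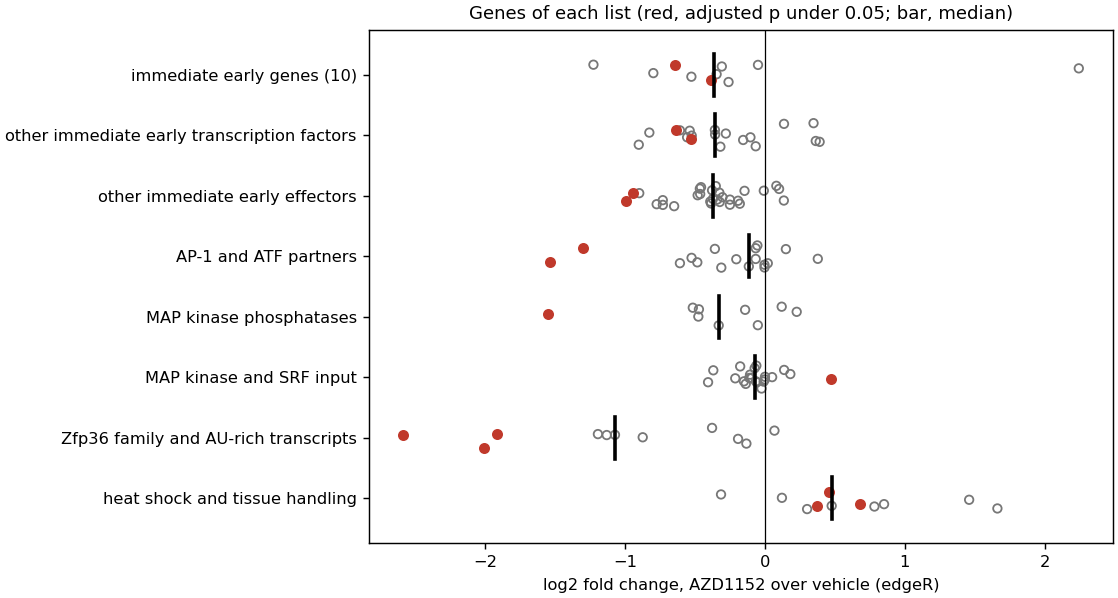
Log2 fold change of each tested gene (points) in the 10 immediate early genes and in 7 related lists, red where the edgeR adjusted p is under 0.05, with the list median as a bar. The medians are -0.36 for the 10 genes, -0.36 and -0.37 for the other immediate early factors and effectors, -0.07 for the MAP kinase list and 0.48 for heat shock genes.

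Among genes that carry signals to the members, 1 passed the test. Of 22 genes of the MAP kinase and serum response factor input 1 rose and 0 fell (median log2 fold change -0.07). The shares of all genes tested were 3.02% and 4.81%. Mapk14, the stress kinase p38 alpha, had 141.7 ± 20.2 CPM with vehicle (SD, n = 3) and 196.4 ± 11.6 CPM with AZD1152 (SD, n = 4), with a log2 fold change of 0.47 ± 0.10 (SE; edgeR adjusted p = 0.0326). The call held only when vehicle replicate 1 or AZD1152 replicate 1 was the library left out (largest edgeR adjusted p = 0.0878). Transcript levels say nothing of the phosphorylation of these kinases, which was not measured.

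In the list of Zfp36 relatives and transcripts with AU-rich elements, 3 of 11 tested genes fell and 0 rose (median log2 fold change -1.07). Of all genes tested, 4.81% were called lower and 3.02% higher. Il6, Csf2 and Il23a were below the filter. Ccl2, a monocyte attractant, had 7.81, 5.996 and 11.9 CPM with vehicle and 2.06, 1.40, 3.32 and 2.27 CPM with AZD1152 (log2 fold change -1.92 ± 0.32, SE; edgeR adjusted p = 0.0140). Cxcl1, a neutrophil attractant, had 5.77, 3.71 and 10.4 CPM with vehicle and 0.545, 0.531, 1.92 and 1.42 CPM with AZD1152 (log2 fold change -2.59 ± 0.49, SE; edgeR adjusted p = 0.0207). The groups did not overlap for either. Il10, an anti-inflammatory cytokine, rested on 12 to 21 counts with vehicle and 3 to 5 with AZD1152 (log2 fold change -2.004 ± 0.39, SE; edgeR adjusted p = 0.0221). Leaving out vehicle replicate 3 ended the calls of all 3 genes (edgeR adjusted p = 0.0562 for Ccl2, 0.0814 for Cxcl1 and 0.0929 for Il10). Those of Cxcl1 and Il10 also ended without vehicle replicate 1, and that of Cxcl1 without AZD1152 replicate 4. The macrophage marker sums stood beside these at 1164, 832.6 and 914.3 CPM with vehicle and 388.8, 397.2, 547.3 and 596.5 CPM with AZD1152, and their part in the lower cytokines was not tested.

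Outside the lists, the 8 genes whose log2 CPM followed the mean standardised pattern of the 10 members most closely over the 7 libraries were Hpgds, Pdgfb, Slc44a2, Cyfip1, Ext1, Twf2, Osmr and Axl. Their Pearson r ran from 0.965 to 0.988, as a description of these 7 libraries. Of 11334 candidates, whose mean was 5 CPM or more, 115 had r above 0.9, and so did 2 of the 10 members themselves. Axl was called lower (log2 fold change -0.68 ± 0.16, SE; edgeR adjusted p = 0.0401), a call that held only when vehicle replicate 2 or AZD1152 replicate 3 was the library left out (largest edgeR adjusted p = 0.159). The other 7 were not called.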

How the data were processed

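Poly(A)-selected RNA of 7 kidneys was sequenced. What the authors deposited is 1 table of unnormalised counts for each gene and mouse. Per the submitters' processing notes, CASAVA, HISAT2 2.0.5, DESeq2 and DESeq were used with build GRCm38. The counting tool, its strand setting and the annotation release are not given in the sources used here. Reads of overlapping genes therefore cannot be told apart. Libraries held 14692113 to 17036862 counts, and 3 counts correspond to 0.167 to 0.213 CPM (counting error only, as reads are PCR copies without molecular identifiers).

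Groups and replicate numbers came from the sample titles. The series text speaks of separate mice. GENCODE mouse release 21 (GRCm38) named 53360 of 53465 genes and gave coordinates and exon lengths. Genes passing filterByExpr were tested on group alone by the quasi-likelihood test of edgeR 4.0.16 (R 4.3.3) after TMM scaling, with Benjamini-Hochberg adjustment over 15774 genes and a two-sided threshold of 0.05. SE is the log2 fold change over the square root of F. A prior count of 2 was added for log2 CPM per library and one of 0.5 for ratios. Counts were simulated for AZD1152 against vehicle at the fitted trend of spread (5 runs, 15549 to 15601 genes, 200 changed). In them 34.3% of 1.5-fold, 71.6% of 2-fold and 97.3% of 4-fold changes were recovered, with 4.11% false calls. The coefficients of variation of Fosb, Egr1, Fos and Junb were 3.55, 2.85, 2.34 and 2.06 times that trend. These rates therefore do not hold for those 4 members. Atf3, Zfp36, Ier2 and Jun were also above the trend, at 1.43, 1.15, 1.13 and 1.09 times. Dusp1 and Jund were below it, at 0.879 and 0.743 times. The simulated spread was thus not exactly that of these members either.

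The 10 members and all lists were chosen with earlier results of these data known. Named genes are the members, up to 4 called genes of each list by smallest p, and the 8 genes closest to the members' pattern. Alternatives were RLE, upper-quartile and total-count scaling, TMM on genes other than immunoglobulin, T cell receptor, mitochondrial and top 50 genes, a stricter filter and none, DESeq2 1.42.0, limma-voom (limma 3.58.1), a replicate block and leaving out each library.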

Additional observations from a re-analysis of the deposited data

Results flagged for a closer look

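Fosb in AZD1152 replicate 3, at 18.4 CPM, lay far from the other 3 treated kidneys. Its gap to the nearest of them was 0.942 of the group's whole range, above the 95% critical value of Dixon's test for 4 samples. This was 1 of 24 genes examined in this way, and chance alone flags about 1 group in 20. Fos, Egr1, Junb and Atf3 in the same library stood at 5.75, 20.6, 43.8 and 7.86 CPM, each within the range of the other 6 libraries.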

How the results depend on the processing

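For single genes, 416 values kept their direction and side of the threshold under the alternatives, 74 lost a call, 13 gained one and 6 turned sign. The sign turned for Fosb without AZD1152 replicate 3 (range 2.63 to -0.37 on leaving out 1 library) and for Jund, whose estimates ran from -0.30 to 0.15 on leaving out 1 library and were 0.0066 with limma-voom and 0.042 with the replicate block. Fosb was 0.65 with limma-voom and 1.43 with the replicate block, and total counts moved Jun to -0.41 and Ier2 to -0.46. Members called lower were 2 under all other scalings, filters and tests, and 0 to 2 on leaving out 1 library (0 on leaving out vehicle replicate 1, vehicle replicate 3, AZD1152 replicate 2 or AZD1152 replicate 4, 1 for AZD1152 replicates 1 and 3, and 2 for vehicle replicate 2).

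Over all genes, 232 were higher and 1482 lower with total counts, 943 and 1139 with DESeq2, and 60 to 475 and 163 to 619 on leaving out 1 library, beside 476 and 759. Effectors called lower were 8 with total counts, 5 without a filter, 8 with DESeq2, 4 with limma-voom and 0 to 6 on leaving out 1 library. Total counts gave 5 lower AP-1 and ATF partners and 2 lower MAP kinase input genes. Heat shock genes called higher were 5 without a filter, 5 with DESeq2 and 0 to 3 on leaving out 1 library. Leaving out 1 library gave 0 to 2 lower genes among other transcription factors, partners and phosphatases, 0 to 3 in the AU-rich list, and 0 to 1 higher in the MAP kinase list. The cause was not tested.

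Over 15774 genes, same-numbered mice of the 2 groups did not consistently deviate together (correlations -0.28, 0.21 and -0.11). So few values cannot settle whether the numbers pair mice. With the replicate block, over replicates 1 to 3, 64 genes were higher and 148 lower, and 2 members were lower, Zfp36 and Fos (edgeR adjusted p = 0.0302), while Dusp1 was not (0.117). At an unadjusted edgeR p under 0.05, 7 members were lower with the block. Without a block that number was 4 on the same libraries and 3 in the main fit. The block left 0 calls among other transcription factors, AP-1 and ATF partners, phosphatases and the MAP kinase list, and 1 heat shock gene higher. The few counts of Jund and Fosb limit what any test of them can show.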
